A study of Mus musculus with 3 samples.

Results

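The Pramel and Pramef genes of the mouse were examined in RNA immunoprecipitation sequencing (RIP-seq) data for the m6A reader YTHDF2. The members were all rows of the table of gene counts whose symbol starts with Pramel or Pramef, which gave 48 of 49997 genes, all of them under Pramel symbols in this annotation. The cells were E14 mouse embryonic stem cells (ESCs) grown in serum replacement with LIF and treated for 24 h with doxycycline (Dox). In the cell system of the study Dox switches on a Dux transgene, which shifts some cells into a 2-cell (2C)-like state, and a tdTomato reporter under the Mervl promoter marks them. All 3 libraries came from these cells, 1 of them the input and the other 2 immunoprecipitated (IP) with an antibody to YTHDF2, so neither an untreated culture nor an IP with a control antibody stands beside them here. The labels do not say that the IP libraries came from separate cultures, so the p-values below measure only the spread between these samples, which may be technical.

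The PRAME family encodes leucine-rich repeat proteins and has expanded by repeated gene duplication in mammals, so that many of its genes lie in clusters of close copies. Its members are expressed mainly in the germ line, in early embryos and in ESCs, and several are known among the transcripts of the 2C-like state. PRAMEL6 and PRAMEL7 are the best studied in ESCs, where they act with a Cullin 2 ubiquitin ligase on UHRF1, a cofactor of the DNA methyltransferase DNMT1, and keep DNA methylation low. YTHDF2 binds mRNAs that carry N6-methyladenosine (m6A) and promotes their decay, and m6A is placed mostly in a short context of which GGAC, and in particular GGACT, is a common form.

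Coordinates are those of GRCm38.p6, the assembly of mm10. By position the 48 genes formed 7 groups. The largest held 21 genes at chr4:143394441-144408467 and the next 18 genes at chr5:93481827-95736173. A group of 3 genes, Pramel17, Pramel18 and Pramel19, lay on a more proximal part of chromosome 4, and Pramel32 stood alone on that chromosome. Pramel6 and Pramel7 were neighbours on chromosome 2, Pramel and Pramel3 on chromosome X, and Pramel51 was alone on chromosome 12. In 0 of the 48 genes did an exon overlap an exon of another gene of the table.

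How far the copies resemble each other decides how well short reads can be assigned to them, so the sequences that the comparisons below turn on are shown here. The first pair is Pramel14 and Pramel30, whose exons were 99.3% identical (12 of 1745 aligned positions differed, 10 of them coding). Around the first GGACT of the coding sequence (capitals) these genes had the same 25 bases, at chr4:143991778-143991802 on the minus strand and chr4:144332790-144332814 on the plus strand.
Pramel14: gtaggatgaaGGACTctcacctcag
Pramel30: gtaggatgaaGGACTctcacctcag
Of all coding stretches of 30 bases, the one in which they differed most held 2 differences (capitals), at chr4:143993407-143993436 (minus) and chr4:144331182-144331211 (plus).
Pramel14: gagggtggagaTcagttagtagaaactatG
Pramel30: gagggtggagaCcagttagtagaaactatA

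The second pair is Pramel18 and Pramel19, the neighbours on chromosome 4, with 96.8% identity and 47 differences in 1452 positions, all coding. Their most divergent coding stretch of 30 bases, shown to set it beside the pair above, held 7 differences (capitals), at chr4:101909936-101909965 and chr4:101941211-101941240, both on the plus strand.
Pramel18: GAaagggaGaaaggagcAaatttcGaaAcG
Pramel19: TGaagggaTaaaggagcCaatttcAaaGcA

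The third set is from chromosome 5, where the exons of Pramel36 and Pramel49 were identical over 1599 bases. Their first coding GGACT (capitals), at chr5:93927683-93927707 and chr5:95593506-95593530 on the minus strand, therefore had the same surroundings.
Pramel36: gtggcagcctGGACTtttccctgtc
Pramel49: gtggcagcctGGACTtttccctgtc
For contrast, the windows of Pramel12 (chr4:143419047-143419071, plus) and Pramel1 (chr4:143396507-143396531, plus) come from genes without a close copy, one above and one below the input in the IP libraries.
Pramel12: gttggatggtGGACTcccagctcac
Pramel1: tgaagaaccaGGACTtggctatctc

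Detection was counted first, at a floor of 3 counts in a library. This floor was 0.0811 CPM (the usual scaling of a count to the library total) for the input, and 0.0851 and 0.0836 CPM for IP replicates 1 and 2. At this floor 35 of the 48 genes were detected in the input, 34 in the first IP library and 37 in the second. In all, 39 genes were detected in at least 1 library and 31 in all 3. With a floor of 1 count, 43 were detected in at least 1 library, and with a floor of 10 counts, 31. Pramel, Pramel23, Pramel27, Pramel35 and Pramel48 had no count in any library, which allows up to 3 counts in each (the floors above). Pramel4, Pramel22, Pramel25 and Pramel29 stayed at 2 counts or fewer. The floors here and the intervals below cover counting error only and take each count as independent. Mates of a pair were counted singly, so a fragment can give more than 1 count. The intervals are therefore too narrow even for counting error.

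Summed over its members, the family took 37051 input counts, and 39380 and 39639 counts in IP replicates 1 and 2. These were 0.100% of all counts in the input (95% Wilson interval 0.0992% to 0.101%), 0.112% (0.111% to 0.113%) and 0.110% (0.109% to 0.112%) in the IP libraries. After scaling, the family sum in the IP libraries was 1.04-fold and 1.03-fold that of the input. This near-equal sum held genes that moved in opposite directions. The 5 genes with the most input counts (Pramel19, Pramel31, Pramel16, Pramel18 and Pramel12) held 69.5% of the family's counts in the input and more in both IP libraries, up to 76.1% in replicate 2.

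Levels between genes were compared as CPM per kb of exon. In the input, the order was led by Pramel19 at 135.6, Pramel31 at 90.9, Pramel18 at 72.3 and Pramel16 at 70.6 CPM per kb. All others were at or below the 24.0 CPM per kb of Pramel11. With a single input library, neighbours in this order cannot be told apart by a spread. In the IP libraries, Pramel31 (134.5 and 135.4 CPM per kb) and Pramel16 (112.9 and 111.9) stood above Pramel19 (87.2 and 87.5) and Pramel18 (43.5 and 44.1), and none of these ranges overlapped. This order holds for the whole exon length. A second scaling divided all counts of a gene by the single-copy share of its exon length (150-base windows found once in the genome). By it Pramel19 was the highest in the IP libraries too, at 152.6 and 153.2 CPM per kb. Pramel31 then stood at 144.0 and 144.9 CPM per kb. Counts from shared windows stay in these values, so they are not levels measured in single-copy windows. Pramel16 (older symbol Pramef25) and Pramel19 (older symbol Gm12794) are among genes known from the 2C-like state. In a bulk library, more cells in that state and more RNA per cell cannot be told apart.

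**Figure D1:**
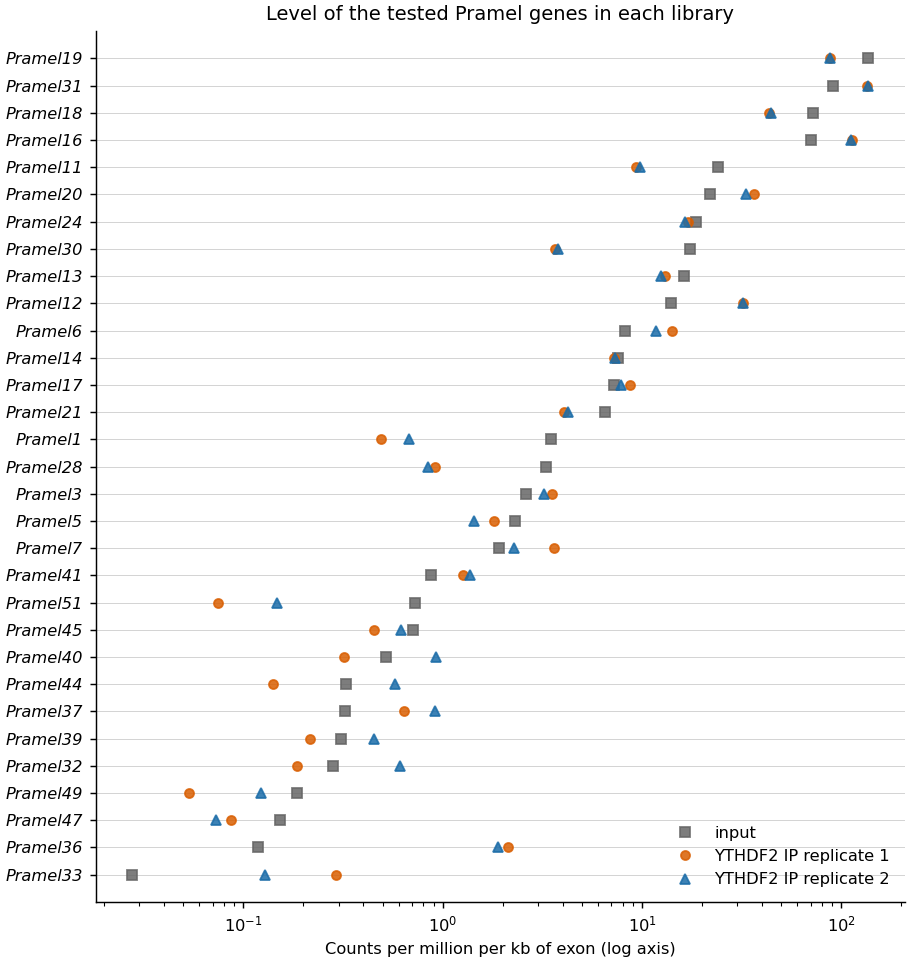
Level of each of the 31 tested Pramel genes in the input (grey squares) and in YTHDF2 IP replicates 1 (orange circles) and 2 (blue triangles), in CPM per kb of exon on a log axis, ordered by the input level. On this scale of whole exon length Pramel31 lies above Pramel19 in both IP libraries, and Pramel36 stands out near the bottom of the order with both IP points far to the right of its input point.

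IP was compared with input in 1 fit over all genes, which asks which transcripts were recovered with YTHDF2 above or below their level in the input. Genes with too few counts were left out, and 31 members were among the 19601 genes tested. Of these, 27 reached the minimum count in both the input and an IP library, Pramel33 and Pramel36 only in IP, and Pramel47 and Pramel49 only in the input. A gene was called at an adjusted p-value under 0.05 (edgeR quasi-likelihood test, Benjamini-Hochberg adjustment) and a fold change over 2. By this rule 2 members were called higher in IP, Pramel12 and Pramel36, or 6.45% of those tested, where 15.0% of all genes tested were called higher. In the other direction 5 were called lower, Pramel1, Pramel11, Pramel28, Pramel30 and Pramel51, or 16.1%, where 13.0% of all genes were. At an adjusted p-value under 0.05 and any fold change, 6 members were higher (all genes 28.4%), 10 were lower (all genes 28.9%), and 15 did not pass. The median log2 fold change was 0.02 over the 31 members and 0.01 over all genes tested. With the trend over GC content removed it was 0.20 over the members, while all genes stayed at 0.01. It also depended on genes at low counts, and the 19 members with a mean of at least 100 counts had a median of -0.24. In single IP libraries the median log2 ratio of the 31 members was -0.45 in replicate 1 and 0.03 in replicate 2. By size alone, with no test, 3 members were over 2-fold higher (all genes 20.5%) and 7 over 2-fold lower (all genes 18.7%) in replicate 1, and 5 (all genes 20.1%) and 6 (all genes 18.7%) in replicate 2. Taken by single IP libraries against the input, 12 members were above it in both (38.7%, all genes 44.2%). A further 15 were below it in both (48.4%, all genes 45.3%), and 4 were split (12.9%, all genes 10.5%).

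The members differed in how closely the IP libraries matched. The log2 ratios of the IP libraries differed by a median of 0.06 among the 19 members with a mean of at least 100 counts, and by a median of 0.98 among the 12 tested members under that level. Over all genes tested these medians were 0.09 and 0.57. Under 50% of windows were single-copy in 10 of the 12 and in none of the 19, so depth and copy number cannot be told apart among the members. None of the 19 was split between the libraries, and all 4 split genes (Pramel32, Pramel39, Pramel40 and Pramel44) were among the 12. The model has 1 residual degree of freedom, from the IP libraries alone, and the spread of the input was not measured.

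**Figure D2:**
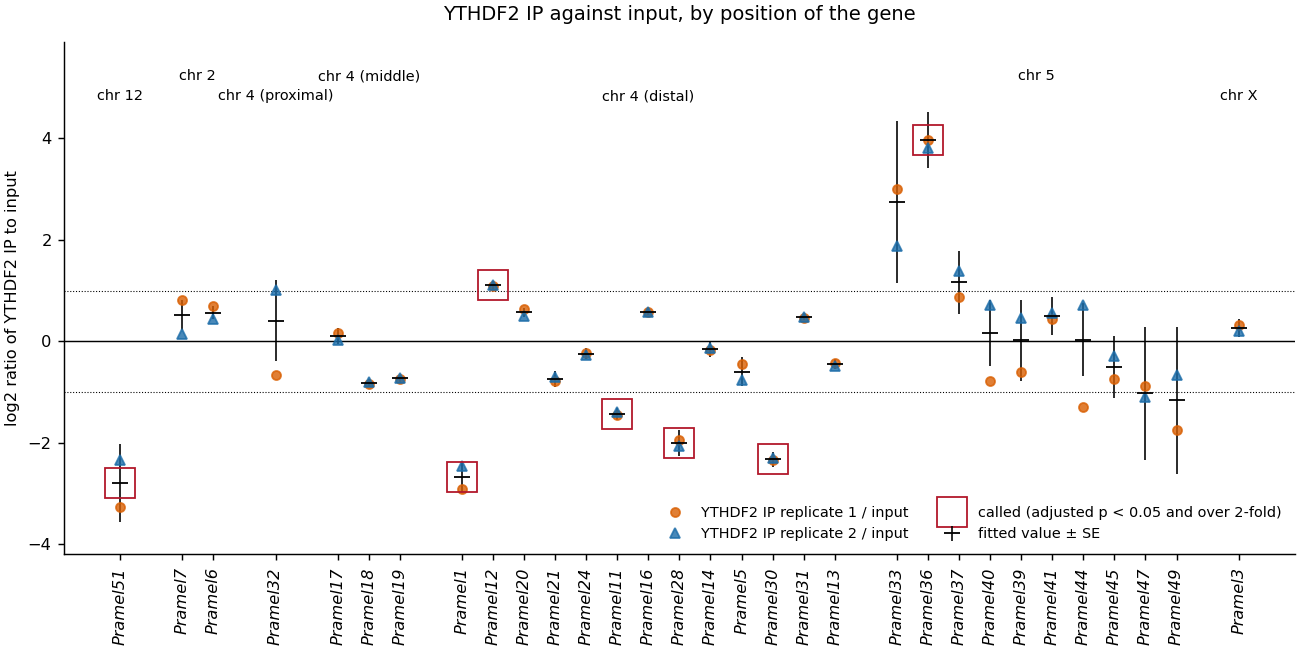
Log2 ratio of each YTHDF2 IP library to the input (orange circles for replicate 1, blue triangles for replicate 2) with the fitted log2 fold change and its SE (black), for the 31 tested Pramel genes in order of position within each group, named by chromosome. Red squares mark the 7 called genes, dotted lines mark 2-fold, and the points of the IP libraries lie close together for the 2 larger chromosome 4 groups but spread widely for most genes of chromosome 5.

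Among the genes with a known role in pluripotency, Pramel6 had counts of 628 in the input and, after IP, of 1033 and 880. Both IP values were above the input, but less than 2-fold. Its log2 fold change was 0.57 ± 0.13 (SE, adjusted p = 0.000417), so that Pramel6 passed the p-value but not the fold threshold. With a dispersion fixed at 0.1 for every gene, tried because the input has no replicate, its adjusted p was 0.540 (range over the alternatives 3.10e-06 to 0.540), and the 8 other members that passed the p-value short of 2-fold did not pass either. Pramel7, which lies downstream of LIF and STAT3 in ESCs, had 132 input counts and 237 and 152 counts after IP. The replicates disagreed on the size, with ratios to the input of 1.76-fold and 1.11-fold, which was the widest difference among the 19 deeper members. The log2 fold change of Pramel7 was 0.52 ± 0.29 (SE) and did not pass the test (adjusted p = 0.129, range over the alternatives 0.00978 to 0.588). It passed when counts were scaled to TPM (0.67, adjusted p = 0.0405) and when the trend over GC content was removed (0.97, adjusted p = 0.00978). Each window of the exons of these genes was single-copy.

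The group of 21 genes at the distal part of chromosome 4 held 5 of the 7 called genes and most of the counts. Of its 13 tested members 4 were called lower (30.8%, all genes 13.0%) and 1 higher (7.69%, all genes 15.0%), and no member was split between the IP libraries. Pramel12 (older symbol Pramef8) had counts of 2150 in the input and, after IP, of 4697 and 4832. Both IP values were more than 2-fold the input, with almost no distance between them. The log2 fold change of Pramel12 was 1.11 ± 0.07 (SE, adjusted p = 7.05e-16). All of its windows were single-copy, and its 4177 bases of exon held 20 GGAC. With the fixed dispersion its adjusted p was 0.188 and the call was lost (range over the alternatives 3.50e-45 to 0.188).

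The called genes that were lower included the neighbour of Pramel12 on the same strand, Pramel1. Pramel1 had 314 input counts and 42 and 59 counts after IP. Both IP values were far below the input, at 7.55-fold and 5.47-fold lower. Its log2 fold change was -2.67 ± 0.29 (SE, adjusted p = 4.51e-10), and all its windows were single-copy. These neighbours, at chr4:143394441-143399819 (Pramel1) and chr4:143412155-143421091 (Pramel12), therefore stood at opposite ends of the deeper members.

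Pramel11 (older symbol Pramef6) had counts of 1378 in the input and, after IP, of 512 and 540. It was lower in both, with a log2 fold change of -1.43 ± 0.12 (SE, adjusted p = 6.79e-13). The call was lost with the fixed dispersion (adjusted p = 0.0518, range over the alternatives 2.79e-29 to 0.0518). Pramel28, annotated as a pseudogene with 1 exon, had 343 input counts and 91 and 85 counts after IP. Its IP values were close together and below the input, at -2.00 ± 0.26 on the log2 scale (SE, adjusted p = 1.48e-08). Single-copy windows made up 88.1% of the exons of Pramel11 and 90.2% of those of Pramel28.

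Pramel30 and Pramel14, the pair with 99.3% identical exons, had different values. Pramel30 had counts of 1122 in the input and, after IP, of 225 and 236. Pramel14 (older symbol Pramef17) had 489 input counts and 443 and 460 counts after IP. Pramel30 was 5.00-fold lower in IP, with a log2 fold change of -2.32 ± 0.15 (SE, adjusted p = 1.56e-16). Pramel14, at -0.16 ± 0.16 on the log2 scale (SE), did not pass the test (adjusted p = 0.430). In single IP libraries the log2 ratios were -2.34 and -2.30 for Pramel30 and -0.17 and -0.14 for Pramel14, and the difference between the genes was not tested. The GGACT window shown above was the same in both genes, and each held 4.01 GGAC per kb. Of their 150-base windows 50.8% were single-copy and the others occurred in both genes, and how reads of the shared windows were assigned was not tested. E14 cells derive from a mouse strain other than that of the mm10 reference, and whether the close copies of this family, here and on chromosome 5, differ in number or sequence between the strains was not tested. Summed, the pair had 1611 input counts and 668 and 696 after IP, or 2.46-fold and 2.40-fold lower.

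Among the remaining genes of this group that passed the p-value but not the fold threshold, Pramel16, Pramel20 and Pramel31 were higher in IP. Pramel31 had counts of 7007 in the input and, after IP, of 9886 and 10126, Pramel16 had 5431 and then 8282 and 8355, and Pramel20 had 1711 and then 2712 and 2513. These closely related genes (Pramel16 and Pramel31 were 96.0% identical, Pramel20 and Pramel31 94.9%) shared a narrow range of log2 fold changes, 0.47 for Pramel31, 0.57 for Pramel20 and 0.58 for Pramel16. Single-copy windows made up 93.5%, 60.7% and 96.8% of their exons in that order.

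Pramel13, Pramel21 and Pramel24 passed the p-value on the other side. Pramel13 (older symbol Pramef12), which is known for a role in spermatogonial stem cells, had 1737 input counts and 1322 and 1288 counts after IP, a log2 fold change of -0.45. Pramel21 had 596 counts and then 354 and 379, a log2 fold change of -0.74. Pramel24 had 1448 counts and then 1269 and 1244, and its log2 fold change of -0.24 lay close to the threshold of the test (adjusted p = 0.0457). With the trend over GC content removed it was 0.20 (adjusted p = 0.0928, range over the alternatives 0.0218 to 0.811). Pramel5, with counts of 183 in the input and, after IP, of 137 and 111, did not pass (adjusted p = 0.0726). Summed over the group, the IP counts after scaling were 1.23-fold and 1.22-fold those of the input. Pramel15 (0, 6 and 6 counts in the input and IP replicates 1 and 2) and Pramel26 (1, 6 and 9) were detected but too low to be tested.

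Of the 3 genes on the proximal side of that group, Pramel18 and Pramel19 were both lower in IP. Pramel19 had 7281 input counts and 4462 and 4559 counts after IP, and Pramel18 had 3881 and then 2226 and 2298. Their log2 fold changes were -0.73 (Pramel19) and -0.82 (Pramel18), past the p-value and short of 2-fold. Unlike Pramel14 and Pramel30, this near-identical pair (57.1% single-copy windows each) had values that lay close together. Pramel17, 61.6% identical to Pramel18, had counts of 526 in the input and, after IP, of 605 and 558 and did not pass (log2 fold change 0.11, adjusted p = 0.579, range over the alternatives 0.0159 to 0.925). With the GC trend removed Pramel17 was at 0.43 and passed (adjusted p = 0.0159).

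**Figure D3:**
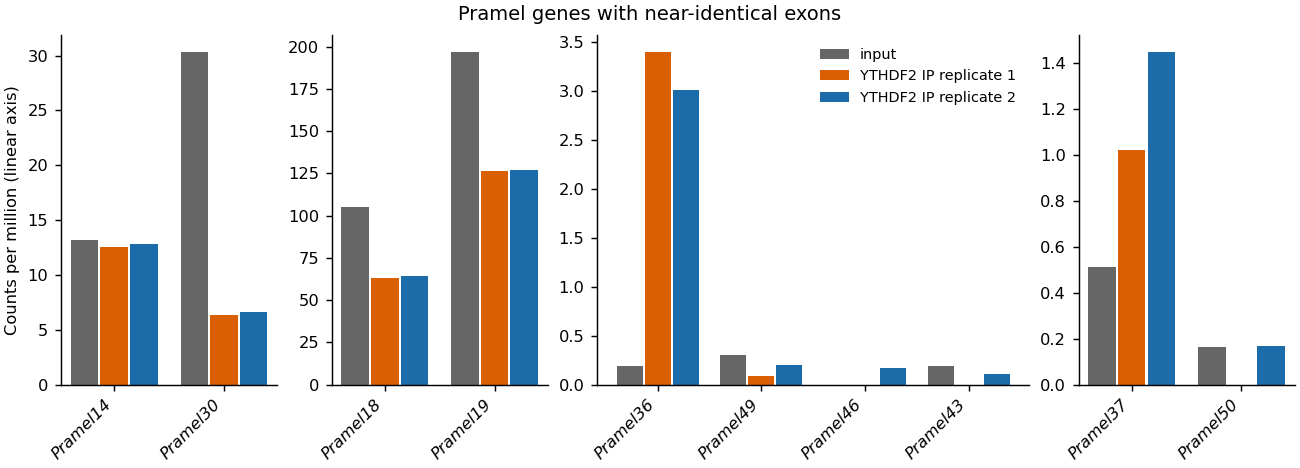
CPM in the input (grey) and in YTHDF2 IP replicates 1 (orange) and 2 (blue) for 4 sets of Pramel genes with near-identical exons, each panel on its own linear axis that starts at 0. The bars of Pramel30 are far lower after IP while those of Pramel14 are close to the input, Pramel18 and Pramel19 dropped together, and in the sets of chromosome 5 the IP counts lay almost entirely on Pramel36 and on Pramel37.

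The group of 18 genes on chromosome 5 was counted at far lower levels, with 262 input counts and 352 and 468 counts after IP over all its members. Of these, 10 were tested and 1 was called, as higher (15.0% of all genes). Pramel36 had counts of 7 in the input and, after IP, of 120 and 108. The single IP libraries were 15.7-fold and 14.0-fold above the input, and the log2 fold change of 3.96 ± 0.55 (SE, adjusted p = 7.09e-08) was the highest of the family. Pramel36 reached the minimum count for the test only through the IP libraries, where it is high. None of its windows was single-copy, and a window occurred up to 9 times in the genome. Its identical copy Pramel49 had 11 input counts and 3 and 7 counts after IP. Pramel46 (99.6% identical to Pramel36) had 0, 0 and 6 counts, and Pramel43 (98.8% identical) had 7, 0 and 4 counts.

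Read together, Pramel36 and Pramel49 had counts of 18 in the input and, after IP, of 123 and 115, a ratio of 6.70-fold and 6.17-fold. With Pramel43 and Pramel46 added, the sums were 25, 123 and 125 counts, or 4.82-fold and 4.83-fold. The excess over the input was smaller for these sums than for Pramel36 alone. The counting tool by default leaves out reads that map to several places, so these sums may not hold all reads of the copies. How reads were placed among these copies was not tested.

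Pramel37, whose exons were identical to those of Pramel50, had 19 input counts and 36 and 52 counts after IP, and Pramel50 had 6, 0 and 6. Pramel37 did not pass the test (log2 fold change 1.17, adjusted p = 0.108). It was called when only genes at 1 CPM or more in 2 libraries were tested, a filter it passed only through the IP libraries (adjusted p = 0.0441, range over the alternatives 0.0441 to 0.354). Pramel33 had counts of 2 in the input and, after IP, of 20 and 9 and did not pass (adjusted p = 0.144). It had reached the minimum count for the test only through an IP library, and it was called with the fixed dispersion (adjusted p = 0.0463, range over the alternatives 0.0463 to 0.253).

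The other tested genes of chromosome 5 did not pass. Pramel41, the deepest of them, had 68 input counts and 94 and 104 counts after IP. Pramel45 had 38, 23 and 32 counts, Pramel47 had 13, 7 and 6, and Pramel49 is given above. Pramel39 (21, 14 and 30), Pramel40 (29, 17 and 50) and Pramel44 (27, 11 and 46) were below the input in IP replicate 1 and above it in IP replicate 2. Pramel34 (6, 7 and 6), Pramel38 (5, 0 and 1) and Pramel42 (3, 0 and 1) were detected and not tested.

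Of the genes outside the larger groups, Pramel51 on chromosome 12 was called lower. It had counts of 51 in the input and, after IP, of 5 and 10, a log2 fold change of -2.79 ± 0.77 (SE, adjusted p = 0.00213). Its IP levels of 0.142 and 0.279 CPM kept it out of the test when 1 CPM was required in 2 libraries, and with DESeq2 its adjusted p was 0.0481 (range over the alternatives 0.000967 to 0.0481). Single-copy windows made up 79.3% of its exons. Pramel32 had 19 input counts and 12 and 40 counts after IP, on both sides of the input. Pramel3 on chromosome X had counts of 358 in the input and, after IP, of 460 and 427 and did not pass (log2 fold change 0.27, adjusted p = 0.191, range over the alternatives 5.28e-05 to 0.796). It passed with scaling to TPM (0.42, adjusted p = 0.0351) and with the GC trend removed (0.98, adjusted p = 5.28e-05).

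**Figure D4:**
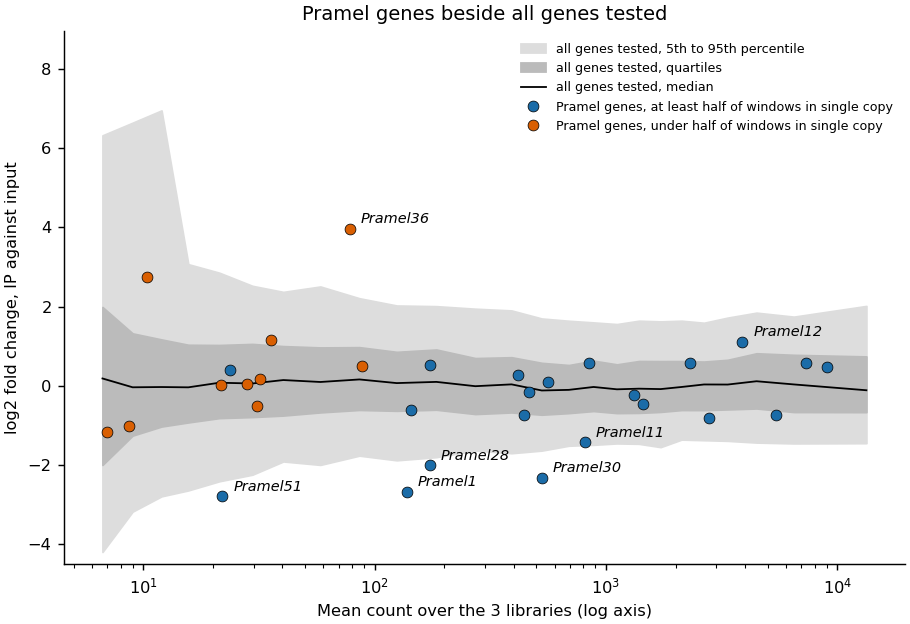
Fitted log2 fold change of IP against input over the mean count of the 3 libraries (log axis) for the 31 tested Pramel genes, in blue with at least 50% and in orange with under 50% of exonic windows in single copy, over the median, quartiles and 5th to 95th percentiles of all genes tested in 25 bins of mean count. Pramel1, Pramel28, Pramel30 and Pramel51 lie below the band of all genes and Pramel36 above it, while Pramel11 lies near its lower edge and Pramel12 within it.

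Sequence features of the exons were set beside these values. All 48 genes held at least 1 GGAC, as did 98.3% of the 19554 tested genes with exons on the main chromosomes. The median density was 4.10 GGAC per kb in the 31 tested members and 3.94 in all genes tested. GGACT, which contains GGAC, was present in 46 of the 48 members (95.8%) and in 88.2% of all genes tested (sense strand of the merged exons). The members called lower held between 3.17 (Pramel51) and 5.16 (Pramel11) GGAC per kb, and those called higher 4.79 (Pramel12) and 6.25 (Pramel36). The exons were shorter (median 1975 bases) and lower in GC (median 45.6%) than those of all genes tested (3102 bases and 49.7%). Across the 31 members the log2 fold change correlated with GGAC per kb at r = 0.23 (Pearson) and rho = 0.14 (Spearman), a description over genes that share sequence and libraries. Over the 19 deeper members these were -0.11 and -0.10. A match to GGAC is not a measured m6A site.

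Genes of the same protein family under other symbols were taken as a list of 26, of which 15 were tested. None was called in either direction by edgeR or by DESeq2, where 15.0% of all genes were called higher and 13.0% lower by edgeR. With at least 1 CPM required in 2 libraries 1 relative was called higher, and with the fixed dispersion 2 were. At an adjusted p-value under 0.05 and any fold change 1 was higher (28.4% of all genes) and 3 were lower (28.9% of all genes), the same counts as at an unadjusted p-value under 0.05. Prame, the gene that names the family, had 32 input counts and 50 and 29 counts after IP (log2 fold change 0.27, adjusted p = 0.724). Of the oogenesins, Oog4 had 2, 8 and 18 counts (adjusted p = 0.185), Oog1 had 10, 0 and 2 and was not tested, and Oog2 and Oog3 had no count in any library. The 3 relatives with the highest mean count were LOC108168685 (1083, 1507 and 1588 counts, log2 fold change 0.47), LOC108168684 (1196, 1236 and 1279, 0.03) and LOC101055951 (917, 710 and 689, -0.43). The median log2 fold change of the 15 tested relatives was 0.33, and the median log2 ratio was 0.21 for the first and -0.05 for the second IP library, so that its sign differed between the libraries.

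Of 10 genes whose products work with PRAMEL6 and PRAMEL7 or stand upstream of Pramel7, all were tested, 1 was called higher (15.0% of all genes) and 1 lower (13.0% of all genes). Il6st, the shared receptor subunit of the LIF pathway, had counts of 3864 in the input and, after IP, of 8648 and 9071 and was higher (log2 fold change 1.16). Stat3, the transcription factor of that pathway, had 3608 counts and then 1730 and 1853 and was lower (-1.05). At any fold change 8 of the 10 passed the p-value as lower, as did 28.9% of all genes tested, which include genes at low counts. Beside Stat3 these were Cul2 (-0.70), the scaffold of the ligase, its target Uhrf1 (-0.85), Dnmt1 (-0.65) and Eloc (-0.64). The others were Jak1 (-0.92), Rbx1 (-0.24) and Lifr (-0.19). The lowest mean count of the 10 was 1555 (Jak1), and Lifr passed at only 1.14-fold lower. Elob, an adaptor of the ligase, did not pass (0.01, adjusted p = 0.848). With library totals or scaling to TPM 6 of the 10 were lower by the p-value and Stat3 was not called. With the fixed dispersion (edgeR) 0 of the 10 passed in either direction, and 1 was higher and 0 were lower at an unadjusted p-value under 0.05. Pramel6, in contrast to these 8, was above the input in both IP libraries, and the difference between the genes was not tested.

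The libraries held 36986994 counts (input), 35259827 (IP replicate 1) and 35888743 (IP replicate 2). The labelled cell type was checked with marker genes. All 8 ESC markers were above the floor in the input and summed to 7035 CPM there and 8370 and 8281 CPM in the IP libraries, with Nanog (-0.56 on the log2 scale), Zfp42 (-0.51) and Tfcp2l1 (-0.31) lower and Pou5f1 (0.40), Sox2 (0.83), Klf4 (0.62) and Esrrb (0.29) higher by the p-value. All 6 markers of 2C-like cells summed to 2158, 3205 and 3126 CPM. Within the latter list Zscan4c (522.3, 1245 and 1222 CPM), Zscan4d (839.6, 1192 and 1200 CPM) and Tcstv3 (32.7, 43.9 and 42.8 CPM) were higher after IP and Gm4340 (471.9, 417.5 and 345.7 CPM) was lower, while Usp17la (276.3, 284.6 and 297.3 CPM) and Tdpoz4 (15.5, 21.9 and 18.4 CPM) did not pass the test. Markers of other cells were far lower. Fibroblast markers (4 of 6 at the floor or above in the input) summed to 30.0, 16.9 and 17.7 CPM, most of it from Thy1 (26.9 CPM in the input), with Col3a1 at 0 in all libraries. Endoderm markers (4 of 4) summed to 8.81, 14.9 and 9.72 CPM, and trophoblast markers (2 of 4) to 1.84, 3.94 and 3.76 CPM, with Elf5 at 0 in the input. The part of these differences in the values of the Pramel genes was not tested.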

How the data were processed

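RIP-seq libraries of Dox-treated E14 ESCs were used, 1 input and 2 YTHDF2 IP, grouped by their titles. The methods of the study describe an IP from a cleared cell lysate, whereas the labels describe total RNA extracted before the IP. The deposited values are unnormalized gene counts. Per the submitters' processing notes and the file header, the authors used fastp 0.19.4, HISAT2 2.2.1, mm10 and featureCounts 2.0.3, without strand, in paired mode without the option to count pairs, so mates were counted singly. By its defaults that tool leaves out reads that map to several places, which can lower the counts of genes with close copies. Its effect on the members was not tested. The authors ran DESeq2 1.40.2. The table held 0 columns of other samples.

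The comparison used edgeR 4.0.16 under R 4.3.3 (filterByExpr with a minimum count of 10, TMM factors 0.956, 1.02 and 1.02, robust glmQLFit and glmQLFTest). Benjamini-Hochberg adjustment ran over all 19601 genes tested, at a common dispersion of 0.00538, or 7.33% between IP libraries as a coefficient of variation. Single-library log2 ratios were scaled by TMM after 0.5 was added to each count. Each SE was back-computed as the absolute log2 fold change divided by the square root of the quasi-likelihood F statistic. It holds no measured spread of the input. Counts were simulated from the real means for this comparison over 19601 genes, with the input at the same common dispersion as the IP libraries. The changed genes were drawn only from those with a mean of at least 100 counts. An adjusted p under 0.05, without the fold threshold, was reached by 50 of 50 genes changed 2-fold, 4-fold or 8-fold. It was reached by 28 of 50 changed 1.5-fold and by 11 of 19401 unchanged genes. The simulation does not show how often changed genes under 100 counts pass. The real spread of the input, which was not measured, is not in it. Merged exons of the table were read from GRCm38.p6 (RefSeq), and identities were computed with edlib 1.3.9.post1. For the 6 genes that the annotation also places on a patch or alternate scaffold, exon length on the main chromosome was used.

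Every member detected at 3 counts was named, the tested ones with their counts, and full statistics were given for the called genes, Pramel6 and Pramel7. The members and lists were chosen with earlier results of these data known. Alternatives were other scalings, filters, dispersions and tests (DESeq2 1.42.0), halved counts, removal of GC or length trends, and single IP libraries.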

Additional observations from a re-analysis of the deposited data

How the results depend on the processing

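No paired analysis was possible because the input, a lone library, is not numbered. The calls of the family, 2 higher and 5 lower, had the same counts with RLE size factors, library totals, scaling to TPM, no filter, DESeq2, halved counts, and with the GC or length trend removed. With at least 1 CPM in 2 libraries they were 3 and 4 (Pramel51 was not tested), and with the dispersion fixed at 0.1 they were 2 and 4. Library totals and scaling to TPM moved the median of all genes on the log2 scale to 0.10 and 0.16, and removing the GC trend moved that of the members to 0.20 with all genes at 0.01. Leaving out an IP library, with no test, gave 3 to 5 members over 2-fold higher, 6 to 7 over 2-fold lower, and a median between -0.446 and 0.035. A restriction to the 19 members with a mean of at least 100 counts was chosen after seeing the data. A further condition of at least 50% single-copy windows removed none of them. The restriction left 1 higher (5.26%) and 4 lower (21.1%) and a median of -0.24. Over all genes tested, at any depth, 15.0% were called higher and 13.0% lower.

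In the refitted settings the values of 4 genes changed sign, and in single IP libraries those of Pramel32, Pramel39, Pramel40 and Pramel44 differed in sign. With the GC trend removed, Pramel24 was at 0.20 (adjusted p = 0.0928) and Pramel14 at 0.14 (adjusted p = 0.470, range over its alternatives 0.310 to 0.983). With the length trend removed, Pramel39 was at -0.020 and Pramel44 at -0.021, none of them past the test. The cause was not tested. Of 299 tested single-gene values, 291 kept their direction and their status as called or not, 2 lost and 2 gained a call. By the adjusted p alone 23 crossed the threshold, 12 of them with the fixed dispersion and 11 under other settings, which came from 5 genes (Pramel3, Pramel7, Pramel17, Pramel24 and Pramel37). The relatives, with none called, had 1 called higher with at least 1 CPM in 2 libraries and 2 with the fixed dispersion. Leaving out an IP library gave 2 to 3 over 2-fold higher and a median of -0.050 to 0.21. For the partner genes, an alternative added after seeing the data, the 1 called lower became 0 with library totals or scaling to TPM and 2 with the GC trend removed. By the adjusted p alone, 2 were higher with scaling to TPM or the length trend removed, and with the fixed dispersion (edgeR) 0 passed or were called in either direction (1 higher and 0 lower at an unadjusted p under 0.05). By summed TPM the family held 0.106% of the input.

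The 12 tested members under 100 counts had the wider spread between IP libraries, where depth and copy number cannot be told apart, and the spread of the input could not be measured with 1 library.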
